A study of Mus musculus with 15 samples.

Results

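The proteasome genes of the mouse were followed in oocytes of 4 genotype groups. They were taken as all protein-coding genes whose symbol starts with Psm, a letter from a to g and a digit, which gave 50 of the 53700 genes counted. By role they were 7 alpha and 7 beta subunits of the constitutive core particle, 5 tissue-specific core subunits, 6 ATPases and 11 other subunits of the 19S regulatory particle, 7 assembly chaperones, 5 activators and 1 inhibitor. The remaining member, Psmc3ip, matches by name only and encodes a cofactor of meiotic recombination, so 49 members are proteasome genes.

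Polyadenylated RNA was sequenced from pools of 15 germinal vesicle (GV) oocytes, which are arrested before meiosis resumes. The Padi6 line was on the FVB/N background and had 3 heterozygote (het) and 3 knockout (KO) replicates, and the Tle6 line was on C57BL/6J and had 2 het and 4 KO replicates. Padi6, whose product belongs to the deiminase family, and Tle6, whose product sits in the subcortical maternal complex, are both required to form cytoplasmic lattices, the fibres that fill the oocyte. The comparisons address what each loss does to the oocyte's transcripts. The genotype labels give the controls as het (+/-), while the library names in the same labels read WT. They were taken as het by genotype, with 1 copy of the deletion, and no group was labelled wild-type by genotype. The labels give neither the deleted part of each gene, nor the age of the mice, nor the animals behind a replicate. The p-values below therefore measure spread among samples that may share animals.

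The proteasome is the protease complex that degrades proteins tagged with ubiquitin. Its 20S core is a barrel of alpha and beta rings with the proteolytic sites inside, and the 19S particle binds, unfolds and feeds in the tagged proteins. In immune cells and in the thymus, alternative catalytic subunits replace the constitutive ones, and in oocytes ubiquitin-dependent degradation is known for driving meiotic divisions and the clearance of maternal proteins.

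Gene counts per library ranged from 30100177 to 74947533, and 42 of the 50 members reached a mean of 1 CPM (counts per 1000000) over the 12 biological replicates. The targeted genes followed the labels: Padi6 had 1746, 1594 and 1669 CPM in Padi6 het and 24.8, 23.5 and 18.7 in Padi6 KO, and Tle6 had 457 and 429 CPM in Tle6 het and 91.4, 76.4, 61.1 and 97.0 in Tle6 KO. Oocyte markers summed to 13715 to 17663 CPM in every replicate and granulosa and cumulus markers to 407 to 739 CPM, while 2 haemoglobin genes were at 0. In the Tle6 line, het replicates 1 and 2 and KO replicate 4 were each sequenced as 2 technical libraries, A and B, and these were summed. In library A of Tle6 het replicate 1, most of the granulosa and cumulus sum came from Serpine2, Cyp19a1 and Nr5a2, at 359, 45.5 and 38.0 CPM. The rest of that list lay at 0 to 6.42 CPM there, with Amh at 0 and Fshr at 0.195. The libraries of Tle6 het replicate 2 stood apart from each other. Over the 42 members at 1 CPM or more, their median absolute log2 difference was 0.79, and 18 members differed more than 2-fold. The same median was 0.047 for Tle6 het replicate 1 and 0.060 for Tle6 KO replicate 4, with 0 members past 2-fold in either. Calls of members between the lines that were lost without library A or without library B of that replicate are given with those comparisons.

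Levels differed far more between subunits than between groups. They are compared as CPM per kilobase of merged exons, averaged over the 4 groups, and constitutive subunits spanned 1.22 for Psmd13 to 273 for Psmd8 on that scale. Among 11465 protein-coding genes at 1 CPM or more, Psmd8 stood at percentile 98.8, Psmb2 at 98.3 and Psma6 at 97.6, while Psmd13 stood at 22.9. By these means the tissue-specific core subunits, the activator genes Psme1 and Psme2b and the chaperone gene Psmg2 lay below every constitutive subunit.

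**Figure D1:**
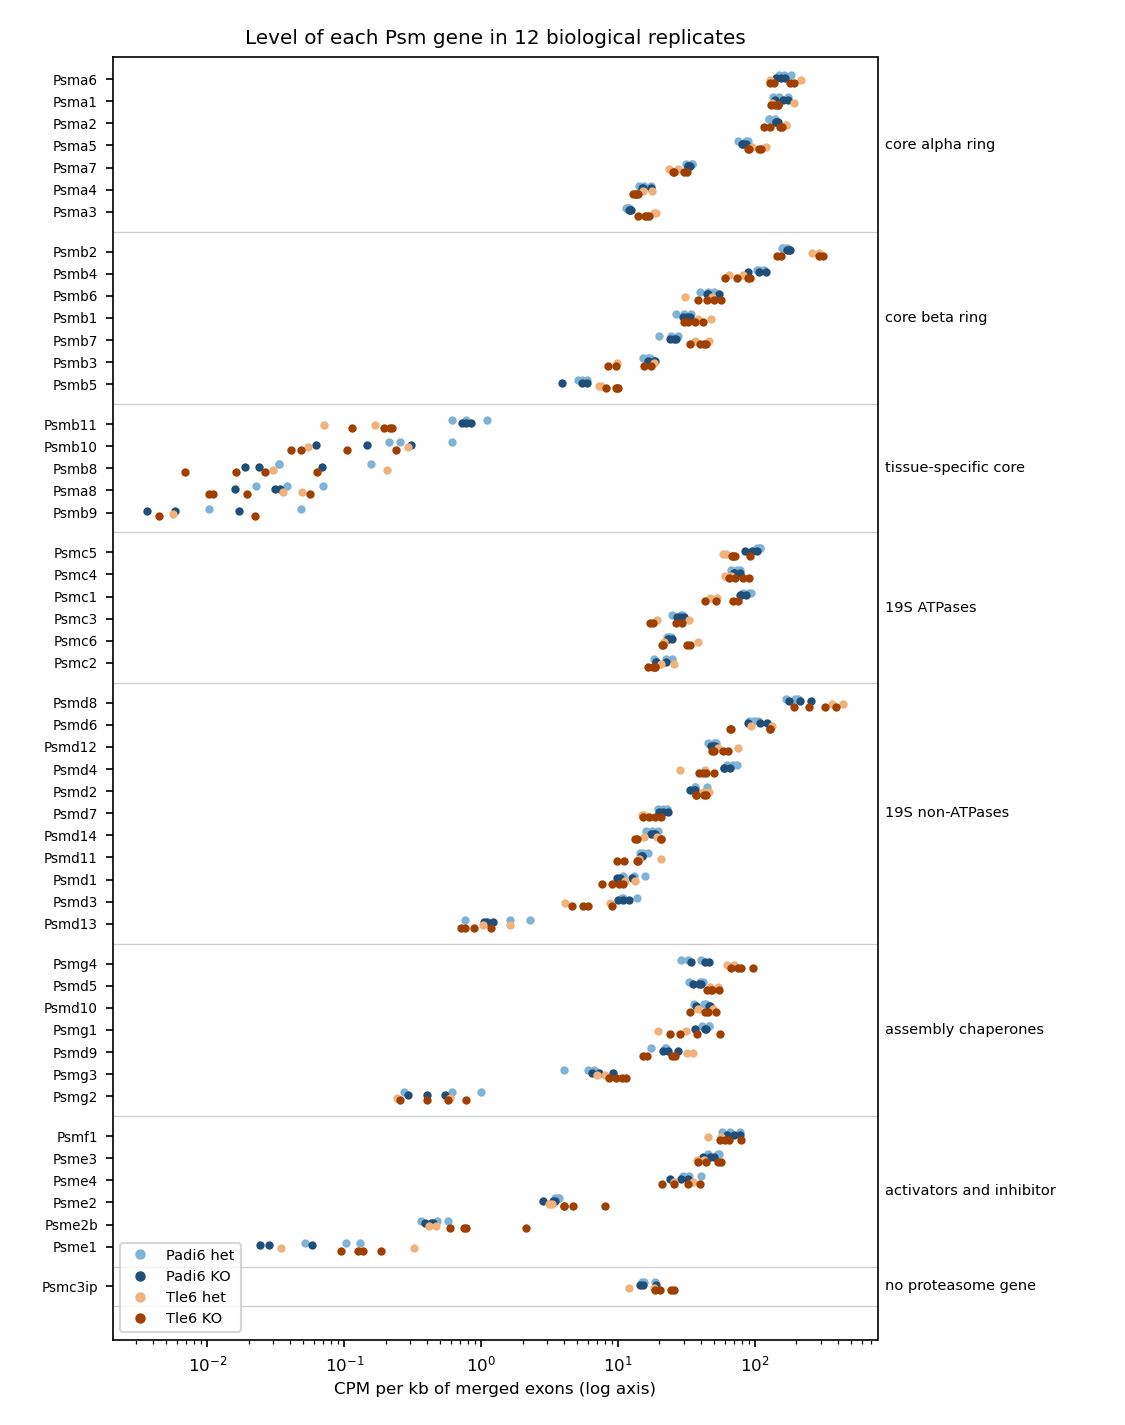
Level of each of the 50 genes in CPM per kilobase of merged exons (log axis), with 1 point per biological replicate coloured by group and genes ordered by level within their subcomplex. Psmd8 and Psmb2 lie at the top and the tissue-specific core subunits lie below 1 CPM per kilobase by mean; the 4 replicates with 0 counts of Psmb9 cannot be drawn on the log axis.

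The alpha ring gates entry to the core. Its transcripts spanned less than those of the beta ring, a contrast that rests largely on Psmb5, the lowest beta member, whose counts are uncertain. Per kilobase, Psma6 was highest at 162 CPM, followed by Psma1 at 154 and Psma2 at 145, and Psma3 was lowest at 14.5, an 11.2-fold span. The first 3 overlapped across replicates, and with the longest coding transcript as length Psma1 came first at 377 CPM per kilobase. Psma6 had 226, 184 and 199.96 CPM in Padi6 het, 203, 189 and 175 in Padi6 KO, 159 and 265 in Tle6 het and 159, 236, 223 and 169.5 in Tle6 KO. The highest and the lowest of these values were both in the Tle6 line, and all 4 groups overlapped. Psma3 had 46.7, 44.0 and 46.0 CPM in Padi6 het, 46.7, 47.7 and 48.2 in Padi6 KO, 71.0 and 73.2 in Tle6 het and 62.9, 54.6, 61.0 and 65.8 in Tle6 KO. All 6 Padi6 line values of Psma3 lay below all 6 of the Tle6 line, and Tle6 KO lay below Tle6 het. Of the stretches of 75 bases in Psma3 exons, 21.3% occur also in other annotated genes, as do 39.8% of those of Psma5, so counts of both are uncertain.

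The beta ring carries the proteolytic sites, and its 7 members spanned 30.8-fold per kilobase. Psmb2, the structural beta4 subunit, was highest at 210.1 CPM per kilobase and Psmb5, the beta5 subunit with the chymotrypsin-like site that proteasome inhibitors target, was lowest at 6.81. Psmb3 was next lowest at 15.2, and its counts are uncertain too, since 33.1% of its 75-base stretches also occur in other annotated genes. Psmb2 had 189, 192 and 207 CPM in Padi6 het, 206, 211 and 217 in Padi6 KO, 353 and 312 in Tle6 het and 379, 186, 173 and 350.3 in Tle6 KO. Tle6 KO replicates 1 and 4 lay with Tle6 het, and KO replicates 2 and 3 lay below all Padi6 values. Psmb5 had 4.56, 4.89 and 5.35 CPM in Padi6 het, 5.30, 4.89 and 3.49 in Padi6 KO, 6.69 and 6.47 in Tle6 het and 8.62, 7.35, 8.91 and 8.87 in Tle6 KO. The Padi6 line lay below the Tle6 line in every replicate, Tle6 KO lay above Tle6 het, and the genotypes of the Padi6 line overlapped. Psmb6, the beta1 subunit with the caspase-like site, had 84.4, 74.1 and 93.6 CPM in Padi6 het, 102, 85.0 and 83.4 in Padi6 KO, 91.3 and 57.6 in Tle6 het and 94.3, 83.1, 71.0 and 105 in Tle6 KO. Psmb7, the beta2 subunit with the trypsin-like site, had 94.1, 68.2 and 83.2 CPM in Padi6 het, 90.9, 82.2 and 86.7 in Padi6 KO, 157 and 124 in Tle6 het and 149, 114, 144 and 135 in Tle6 KO. Psmb6 overlapped across all 4 groups, whereas the Psmb7 values of the Tle6 line all lay above those of the Padi6 line. Counts of Psmb7 are uncertain, since 24.1% of its 75-base stretches also occur in Nek6, whose exons overlap its own.

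The catalytic subunits share the core in equal number, but their transcripts did not have equal levels per kilobase. The ratio of Psmb6 to Psmb5 was 8.19 ± 0.822 (SD, n = 3) in Padi6 het, 9.67 ± 1.61 (n = 3) in Padi6 KO, 5.42 ± 1.61 (n = 2) in Tle6 het and 5.04 ± 0.826 (n = 4) in Tle6 KO. With the longest coding transcript as length the group means of that ratio were 11.8 to 22.7. Counts of Psmb5 are uncertain: 40.0% of its 75-base stretches also occur in Gm3375 or Mir686. Gm3375 had 8.34, 8.72 and 8.12 CPM in Padi6 het, 8.75, 7.71 and 7.94 in Padi6 KO, 0.443 and 0.614 in Tle6 het and 0.491, 1.11, 0.997 and 0.622 in Tle6 KO. Psmb5 and Gm3375 added together came to 11.4 to 14.0 CPM in Padi6 oocytes and 7.08 to 9.90 CPM in Tle6 oocytes, the reverse of the order for Psmb5 alone.

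Proteasome promoters are known to be bound by NRF1, the product of Nfe2l1, at antioxidant response elements, whose core is TGACNNNGC. The windows of the 250 bases upstream of the start site of Psmb6 and Psmb5 are shown because these are the catalytic subunits that hold a match to this motif, set in capitals (RefSeq, GRCm38.p6, Psmb6 at chr11:70525107-70525356 on the plus strand and Psmb5 at chr14:54617996-54618245 on the minus strand).
Psmb6: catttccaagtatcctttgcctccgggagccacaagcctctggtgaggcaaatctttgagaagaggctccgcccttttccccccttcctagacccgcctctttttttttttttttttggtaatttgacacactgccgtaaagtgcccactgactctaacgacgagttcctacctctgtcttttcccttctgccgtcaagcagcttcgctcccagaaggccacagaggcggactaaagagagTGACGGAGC
Psmb5: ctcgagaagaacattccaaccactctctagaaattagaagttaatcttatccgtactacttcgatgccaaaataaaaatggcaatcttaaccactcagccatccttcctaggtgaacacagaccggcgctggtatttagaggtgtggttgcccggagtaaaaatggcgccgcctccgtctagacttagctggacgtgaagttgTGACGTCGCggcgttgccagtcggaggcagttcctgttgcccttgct
Searched on both strands, TGACNNNGC occurred in 5 of the 41 proteasome members in the promoter table (12.2%; Psmb5, Psmb6, Psmc6, Psmd12 and Psmd9) and in 11.5% of 27025 genes. CCAAT, the box bound by NF-Y, occurred in 14 of the 41 (34.1%) and in 37.5% of all genes. A match is a description of these letters and no evidence of binding.

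The tissue-specific core subunits were close to the limit of detection, apart from Psmb11. Psmb8, Psmb9 and Psmb10 encode the immunoproteasome subunits beta5i, beta1i and beta2i, and Psma8 a testis alpha subunit. Psmb9 had 28 counts over all 12 replicates and 0 in 4 of them, where 3 counts would correspond to 0.038 to 0.070 CPM. Psma8 had 63 counts in all and 0.0254 to 0.175 CPM. Psmb10 had 0.435, 0.358 and 1.04 CPM in Padi6 het, 0.519, 0.249 and 0.106 in Padi6 KO, 0.494 and 0.0921 in Tle6 het and 0.0701, 0.407, 0.0819 and 0.178 in Tle6 KO. Psmb8 had 0.114, 0.113 and 0.526 CPM in Padi6 het, 0.0799, 0.234 and 0.0638 in Padi6 KO, 0.101 and 0.696 in Tle6 het and 0.0234, 0.212, 0.0546 and 0.0889 in Tle6 KO. The highest Psmb8 value, in Tle6 het replicate 2, came from library A with 68 counts, against 0 counts in library B. Immunoproteasome subunits made up 0.58% ± 0.36 (SD, n = 3) of the summed catalytic subunits per kilobase in Padi6 het, 0.27% ± 0.13 (n = 3) in Padi6 KO, 0.33% ± 0.03 (n = 2) in Tle6 het and 0.16% ± 0.14 (n = 4) in Tle6 KO. Blood and immune markers summed to 20.2 to 34.9 CPM in all groups, with 8 of 11 under 1 CPM throughout and the leukocyte gene Ptprc at 0 to 0.130 CPM. The part of blood and immune cells in the low immunoproteasome values was not tested, and in pooled oocytes fewer cells of a type and less RNA per cell cannot be told apart.

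Psmb11 encodes beta5t, the chymotrypsin-like subunit of the thymus proteasome, which takes the place of Psmb5. It had 2.95, 5.26 and 3.71 CPM in Padi6 het, 4.06, 3.68 and 3.49 in Padi6 KO, 0.342 and 0.808 in Tle6 het and 1.03, 1.06, 0.929 and 0.546 in Tle6 KO. Every replicate of the Padi6 line lay above every replicate of the Tle6 line. Per kilobase, Psmb11 was 12.9% ± 3.31 (SD, n = 3) of Psmb5, Psmb8 and Psmb11 together in Padi6 het, 13.5% ± 1.95 (n = 3) in Padi6 KO, 1.59% ± 0.907 (n = 2) in Tle6 het and 1.96% ± 0.62 (n = 4) in Tle6 KO. These shares rest on the uncertain counts of Psmb5. With the counts of Gm3375 added to those of Psmb5, at the exon length of Psmb5, they became 5.24% ± 1.36 in Padi6 het, 5.24% ± 0.151 in Padi6 KO, 1.47% ± 0.818 in Tle6 het and 1.79% ± 0.532 in Tle6 KO, and the replicates of the lines still did not overlap. Its promoter window is shown because it is the member with the largest difference between the lines (RefSeq, GRCm38.p6, chr14:54625060-54625309, plus strand), with the single CCAAT match in capitals.
Psmb11: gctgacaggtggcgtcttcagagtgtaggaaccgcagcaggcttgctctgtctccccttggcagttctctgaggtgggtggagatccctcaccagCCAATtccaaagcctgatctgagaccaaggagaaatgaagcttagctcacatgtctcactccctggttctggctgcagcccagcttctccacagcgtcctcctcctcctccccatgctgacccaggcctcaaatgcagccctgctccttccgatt
The window has no TGACNNNGC.

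The 6 ATPases form the ring that unfolds substrates, and they spanned the least of these classes, 4.04-fold per kilobase from Psmc2 at 20.7 CPM to Psmc5 at 83.7. With the longest coding transcript as length, Psmc4 came first and Psmc3 last. Psmc5 had 151, 143 and 151 CPM in Padi6 het, 145, 131 and 117 in Padi6 KO, 86.0 and 80.7 in Tle6 het and 99.4, 127, 94.0 and 96.0 in Tle6 KO. Both Tle6 het values were the lowest of all, Tle6 KO lay below Padi6 het, and Tle6 KO overlapped Padi6 KO. Psmc2 had 125, 91.4 and 112 CPM in Padi6 het, 113, 94.9 and 94.95 in Padi6 KO, 104 and 129 in Tle6 het and 83.4, 92.7, 90.5 and 94.0 in Tle6 KO. Tle6 KO lay below Tle6 het and Padi6 KO, and the other pairs of groups overlapped.

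The 11 other subunits of the 19S particle, which recognise ubiquitin chains and remove them, spanned 224-fold, wider than either core ring or the ATPases. Psmd8, a lid subunit, was highest at 273 CPM per kilobase and Psmd13, another lid subunit, lowest at 1.22. Psmd8 had 516, 593 and 628 CPM in Padi6 het, 537, 655 and 782 in Padi6 KO, 1109 and 1332 in Tle6 het and 1184, 586, 753 and 985 in Tle6 KO. Tle6 het was highest, Tle6 KO replicates reached from the range of the Padi6 line up to that of Tle6 het, and the Padi6 groups overlapped. Within Tle6 het replicate 2 the gene stood at 632 CPM (library A) and 1713 CPM (library B). Psmd13 had 2.55, 7.68 and 5.45 CPM in Padi6 het, 3.70, 4.10 and 3.51 in Padi6 KO, 3.46 and 5.47 in Tle6 het and 2.41, 2.96, 3.95 and 2.57 in Tle6 KO. All 4 groups of Psmd13 overlapped, and 14.0% of its 75-base stretches also occur in Sirt3. The promoter windows of these extremes are shown for their contrast in level (RefSeq, GRCm38.p6, Psmd8 at chr7:29180674-29180923 on the minus strand and Psmd13 at chr7:140882144-140882393 on the plus strand). Neither holds CCAAT or TGACNNNGC, so no base is in capitals, and their GC content was 52.8% and 60.4%.
Psmd8: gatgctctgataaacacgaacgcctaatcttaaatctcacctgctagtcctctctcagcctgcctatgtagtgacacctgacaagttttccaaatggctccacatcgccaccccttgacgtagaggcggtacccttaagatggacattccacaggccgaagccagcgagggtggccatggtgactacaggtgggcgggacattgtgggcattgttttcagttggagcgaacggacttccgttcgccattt
Psmd13: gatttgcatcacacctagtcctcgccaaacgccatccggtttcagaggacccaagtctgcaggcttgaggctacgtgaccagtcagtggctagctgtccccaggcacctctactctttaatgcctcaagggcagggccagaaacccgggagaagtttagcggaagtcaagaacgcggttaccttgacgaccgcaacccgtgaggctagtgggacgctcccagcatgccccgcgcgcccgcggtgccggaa

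The assembly chaperones bring the subunits together and leave the finished particle. Psmg1 to Psmg4 act on the core and Psmd5, Psmd9 and Psmd10 on the base of the 19S particle. Psmg4 was highest at 55.0 CPM per kilobase and Psmg2, the partner of Psmg1 in an obligate pair, lowest at 0.489 against 36.8 for Psmg1. With the longest coding transcript as length, Psmd5 came first at 72.1 CPM per kilobase and Psmg4, at 55.0, was no longer highest. Counts of Psmg3 and Psmd9 are uncertain, since 20.3% of the 75-base stretches of Psmg3 also occur in Gm26938 and 25.5% of the exon bases of Psmd9 overlap Gm26745. Psmg4 had 15.9, 17.9 and 22.3 CPM in Padi6 het, 18.7, 23.7 and 25.5 in Padi6 KO, 38.8 and 34.5 in Tle6 het and 37.1, 43.9, 53.5 and 41.9 in Tle6 KO. Both Tle6 groups lay above both Padi6 groups. Psmg2 had 0.473, 1.74 and 1.07 CPM in Padi6 het, 0.692, 0.950 and 0.511 in Padi6 KO, 0.418 and 1.02 in Tle6 het and 0.444, 0.994, 1.34 and 0.699 in Tle6 KO. Its replicates overlapped in all 4 groups.

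Of the activators and the inhibitor, Psmf1, which encodes the inhibitor PI31, was highest per kilobase at 63.0 CPM, followed by Psme3 (PA28 gamma) at 46.3 and Psme4 (PA200) at 30.6. Psmf1 had 499, 368 and 420.4 CPM in Padi6 het, 502, 451 and 399 in Padi6 KO, 289 and 364 in Tle6 het and 413, 388, 356 and 509 in Tle6 KO. Psme3 had 158, 134 and 160.0 CPM in Padi6 het, 137, 148 and 123 in Padi6 KO, 126 and 110.4 in Tle6 het and 113, 167, 158 and 130.1 in Tle6 KO. Psme4 had 336, 249.9 and 275 CPM in Padi6 het, 269, 240.5 and 199 in Padi6 KO, 215 and 295 in Tle6 het and 176, 330.1, 273 and 213 in Tle6 KO. For Psmf1 both Tle6 het values lay below all Padi6 values, for Psme3 they lay below Padi6 het, and the groups of Psme4 all overlapped. Psme2 (PA28 beta) had 6.05, 6.56 and 6.45 CPM in Padi6 het, 6.07, 5.93 and 4.98 in Padi6 KO, 5.75 and 5.51 in Tle6 het and 7.03, 7.13, 14.1 and 8.23 in Tle6 KO. Tle6 KO replicate 3 was the highest, and all 4 Tle6 KO replicates lay above the other groups. Psme1 (PA28 alpha), its partner in the interferon-induced activator, had 0.227, 0.113 and 0.287 CPM in Padi6 het, 0.0533, 0.0623 and 0.128 in Padi6 KO, 0.0760 and 0.716 in Tle6 het and 0.210, 0.407, 0.3005 and 0.279 in Tle6 KO. It lay under 1 CPM throughout, with 4 to 70 counts a replicate. Psme2b is a copy of Psme2 that shares 60.2% of its 75-base stretches with it, so the counts of both are uncertain. It had 0.303, 0.396 and 0.478 CPM in Padi6 het, 0.373, 0.327 and 0.362 in Padi6 KO, 0.393 and 0.348 in Tle6 het and 0.491, 0.652, 1.78 and 0.622 in Tle6 KO, with every Tle6 KO value above all others.

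Loss of Padi6 was accompanied by no detected change in a proteasome gene. Of the 50 members, 46 passed the filter on low counts and 0 passed edgeR's quasi-likelihood test at a Benjamini-Hochberg adjusted p of 0.05, against 2.41% of all genes tested (1.69% higher and 0.724% lower). Members with an unadjusted p under 0.05 numbered 0 with edgeR and 1 with DESeq2, which called 0 after adjustment. The median log2 fold change of the members was -0.013, beside -0.0057 for all genes, and the median absolute value was 0.11, beside 0.22. Values for all genes include genes of low level and were not matched to the members for level. By class the fold changes ran from -0.11 to 0.12 in the alpha ring, from -0.11 to 0.13 in the beta ring, from -0.18 to 0.051 in the ATPases and from -0.48 to 0.18 in the other 19S subunits. A p that misses the threshold does not show equality, but the 95% intervals limit the size. All 39 members at 10 CPM or more had intervals within 2-fold in either direction, from a lowest bound of -0.59 for Psmd1 to a highest of 0.91 for Psmg3. Of the 46 tested, the intervals of Psmb10, Psmd13 and Psmg2 reached beyond 2-fold, and Psma8, Psmb8, Psmb9 and Psme1 were too low to test.

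The largest fold changes at 10 CPM or more in the Padi6 line were those of Psmg3, Psme4 and Psmg4, and none passed the test. Psmg3, a core chaperone, had 11.6, 19.3 and 17.4 CPM in Padi6 het and 18.5, 21.1 and 26.5 in Padi6 KO, a log2 fold change of 0.44 ± 0.21 (SE, adjusted p = 0.289). Psme4 had a log2 fold change of -0.28 ± 0.13 (adjusted p = 0.294) and Psmg4 one of 0.28 ± 0.17 (adjusted p = 0.4216). In all 3 the replicates of the groups overlapped. Groups that did not overlap were found for 2 members, Psma2 higher and Psmd2 lower in KO, against 23.2% of all genes tested. Psma2 had 515, 467 and 467 CPM in het and 519, 535 and 521 in KO, a log2 fold change of 0.12 ± 0.09 with adjusted p = 0.527.

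**Figure D2:**
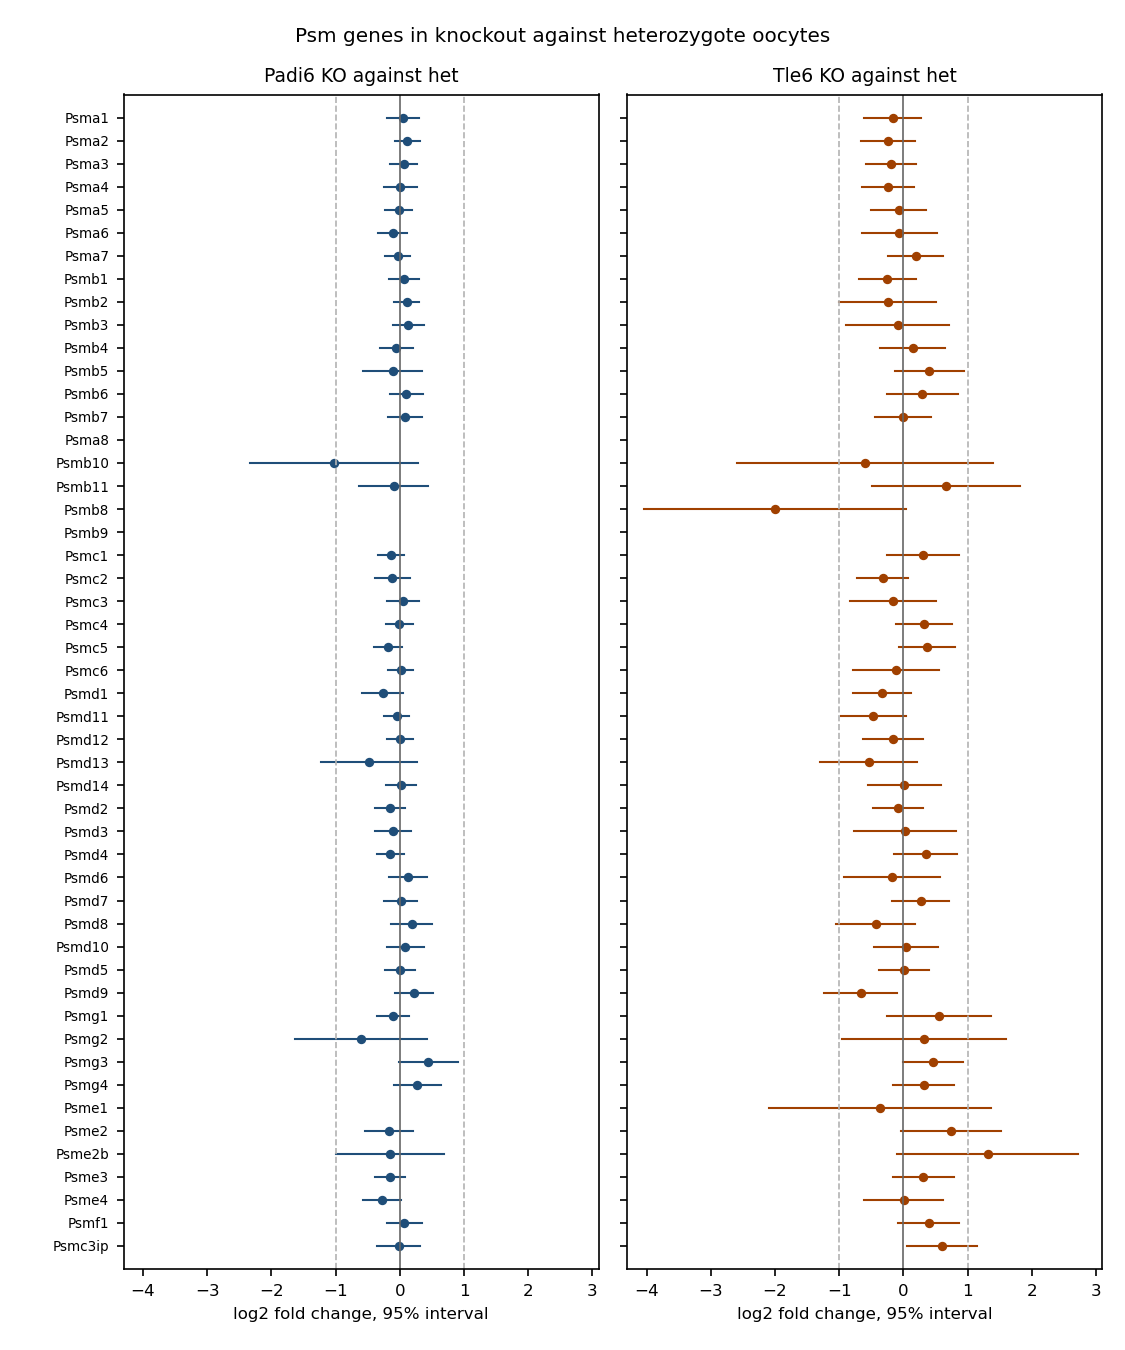
Log2 fold change of KO against het oocytes for each member, with its 95% interval, in the Padi6 line (left) and the Tle6 line (right); dashed lines mark 2-fold and members without a point were not tested. All intervals of the Padi6 line apart from those of Psmb10, Psmd13 and Psmg2 lie within 2-fold, and 36 of 48 intervals of the Tle6 line do.

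Loss of Tle6 was likewise accompanied by no detected change in a proteasome gene, with less precision. Of the 50 members, 48 were tested and 0 passed the test, against 1.62% of all genes tested (0.587% higher and 1.04% lower). The unadjusted p was under 0.05 for 2 members with edgeR and for 4 with DESeq2, which also called 0. The count was 0 without library A and 0 without library B of het replicate 2. The median log2 fold change of the members was -0.0012, beside 0.062 for all genes, and the median absolute value 0.30, beside 0.42, again without matching for level. The intervals of 35 of the 39 members at 10 CPM or more lay within 2-fold, and those of Psmc3ip, Psmd8, Psmd9 and Psmg1 did not. Fold changes ran from -0.24 to 0.19 in the alpha ring, from -0.25 to 0.40 in the beta ring, from -0.32 to 0.36 in the ATPases and from -0.54 to 0.34 in the other 19S subunits.

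The largest fold changes at 10 CPM or more in the Tle6 line were those of Psmd9, Psmc3ip and Psmg1. Psmd9, a chaperone of the 19S base, had 255 and 229.8 CPM in Tle6 het and 189, 117, 110.3 and 179 in Tle6 KO, a log2 fold change of -0.66 ± 0.25 (SE, adjusted p = 0.203, 95% interval -1.23 to -0.10). All KO values lay below both het values, and KO replicates 2 and 3 were lowest. Psmg1, a core chaperone, had 26.2 and 42.2 CPM in het and 32.0, 74.5, 50.4 and 37.9 in KO, a log2 fold change of 0.55 ± 0.36 (adjusted p = 0.434). Its groups overlapped, and the fold change was 0.93 (adjusted p = 0.166) without library A of het replicate 2 and 0.11 (adjusted p = 0.947) without library B. Groups that did not overlap were found for 13 members, 6 above and 7 below het, against 29.2% of all genes tested. Above het were Psmc3ip, Psmc5, Psmb5, Psmg3, Psme2 and Psme2b, and below were Psma2, Psma3, Psma4, Psmc2, Psmd1, Psmd9 and Psmd11.

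The effects of the 2 knockouts on a member were compared directly as the Tle6 effect minus the Padi6 effect, in a fit over all 12 replicates. Of 48 members tested, 0 passed, against 4.32% of all genes tested (1.31% higher and 3.01% lower). The unadjusted p was under 0.05 for 3 members with edgeR and for 3 with DESeq2, which also called 0. The smallest adjusted p was that of Psmd9, whose log2 effect was 0.22 for Padi6 and -0.66 for Tle6 in the fits of each line, and whose difference in the joint fit was -0.93 ± 0.30 (adjusted p = 0.0967). Psmd9 passed without Tle6 KO replicate 1 and without the filter on low counts, the only 2 of 17 alternatives in which any member did. The differences of the 6 activators and inhibitor ran from 0.24 to 1.41 with a median of 0.64, beside 0.021 for all genes, and none passed the test. Psme2 and Psme2b among them share sequence and are not separate observations. In the same comparison the 14 granulosa and cumulus markers tested had a median of 1.28, with 1 called higher and 1 lower, and for Tle6 het replicate 2 the activator and inhibitor sum was 1282 CPM by library A but 501 by library B. The part of either in these differences was not tested.

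**Figure D3:**
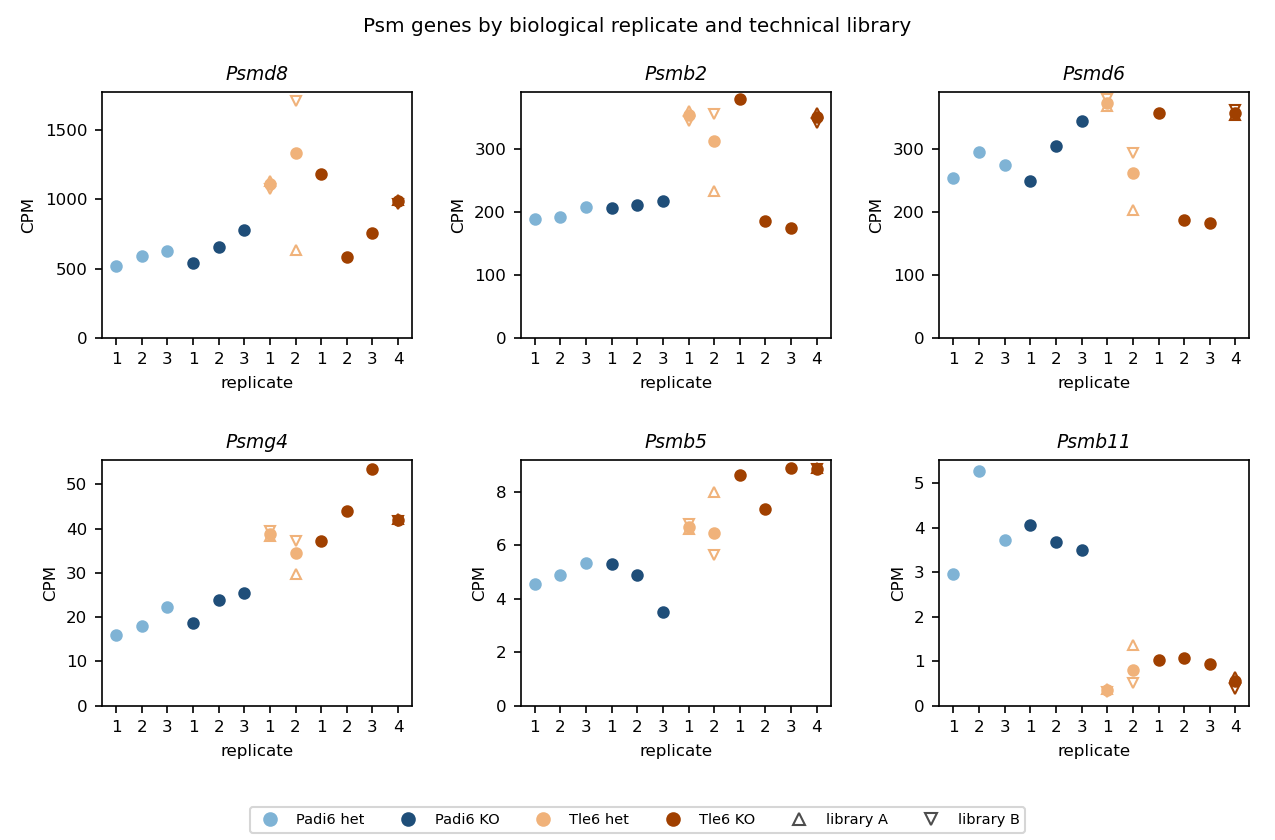
CPM of 6 members in each biological replicate (filled points, coloured by group), with technical libraries A and B of the Tle6 line as open triangles. Psmg4 and Psmb5 lie higher and Psmb11 lower in the Tle6 line, and Tle6 KO replicates 1 and 4 lie above KO replicates 2 and 3 for Psmd8, Psmb2 and Psmd6.

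Oocytes of the lines differed from each other in more members than KO differed from het. In het oocytes 13 of 48 members differed between the Tle6 and Padi6 lines, 6 higher and 7 lower in the Tle6 line. This was 27.1% of the members tested, against 28.5% of all genes tested (15.9% higher and 12.7% lower), a share near the background. Higher were Psmd8, Psmg4, Psmb7, Psmd9, Psma3 and Psmb1, and lower were Psmb11, Psmd4, Psmd3, Psmc5, Psmc1, Psmb4 and Psmd7. Line, strain and any difference in library preparation between the lines cannot be told apart. Spike-in counts were 7116, 7053 and 40 in Padi6 het, 4009 to 13772 in Padi6 KO and 5 to 45 in the libraries of the Tle6 line. The lines thus differed in spike-in reads, as did Padi6 het replicate 3 from its group, and what this means for the genes was not tested.

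Psmd8 was 2.11-fold higher in het oocytes of the Tle6 line (log2 1.08 ± 0.25, SE, adjusted p = 0.00568), but the value was 0.49 (adjusted p = 0.307) without library B of Tle6 het replicate 2 and 1.42 (adjusted p = 0.0027) without library A. Psmg4 was 1.96-fold higher (log2 0.97 ± 0.20, adjusted p = 0.00322) and Psmb7 1.72-fold higher (log2 0.78 ± 0.17, adjusted p = 0.00444). Psma3 was 1.58-fold higher (log2 0.66 ± 0.13, adjusted p = 0.00264). Psmb11 was 6.85-fold lower (log2 -2.78 ± 0.44, adjusted p = 0.000484), at log2 -3.53 to -2.29 over the alternatives, the former without Tle6 het replicate 2. All 5 genes stood apart from the Padi6 line in both Tle6 het replicates. Without that replicate Psmd8 was at 0.94 (adjusted p = 0.0502).

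Subunits of the 19S particle were among those lower in Tle6 het. Psmd4, the ubiquitin receptor RPN10, had 194, 175 and 207 CPM in Padi6 het, 184, 167 and 167 in Padi6 KO, 121 and 78.7 in Tle6 het and 118, 124, 109 and 141 in Tle6 KO. Its Tle6 het values lay below all Padi6 values, by log2 -0.94 ± 0.19 (adjusted p = 0.00222). The ATPase Psmc5 was lower by log2 -0.83 ± 0.16 (adjusted p = 0.00217). The ATPase Psmc1 had 181, 158 and 175 CPM in Padi6 het, 166, 152 and 149.7 in Padi6 KO, 90.8 and 102 in Tle6 het and 83.3, 146, 133 and 101 in Tle6 KO, and its log2 difference of -0.83 ± 0.21 (adjusted p = 0.00968) became -0.67 (adjusted p = 0.0587) without library B of Tle6 het replicate 2. Psmd3, a lid scaffold subunit, had 53.3, 54.3 and 68.1 CPM in Padi6 het, 49.7, 54.0 and 59.6 in Padi6 KO, 43.1 and 20.1 in Tle6 het and 30.1, 27.3, 22.9 and 44.5 in Tle6 KO, a log2 difference of -0.89 ± 0.31 with adjusted p = 0.0459, or -0.73 (adjusted p = 0.0822) without library B. It passed in only 7 of the 18 alternatives, at -0.44 (adjusted p = 0.359) without Tle6 het replicate 2 and -1.53 (adjusted p = 0.00574) without Tle6 het replicate 1.

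Without library B of Tle6 het replicate 2 the number of members that differed between het oocytes was 7, and without library A it was 19. All 7 were among the 13, as were 12 of the 19. Psma3, Psmb7, Psmb11, Psmc5, Psmd4 and Psmg4 passed in each of the 18 alternatives tried. Of the others, Psmb4 lost its call without library B, with -0.16 (adjusted p = 0.718), as did Psmd7, with -0.28 (adjusted p = 0.317), and Psmd9, with 0.60 (adjusted p = 0.104). Psmb1 lost it without library A, with 0.46 (adjusted p = 0.0664). Psmd8 and Psmc1 passed in 16 of the 18 alternatives, Psmd9 in 12, Psmb1 in 11 and Psmb4 and Psmd7 in 9 each. Leaving out Tle6 het replicate 1 ended the calls of Psmb1, Psmb4, Psmc1, Psmd7 and Psmd9. Leaving out Tle6 het replicate 2 ended those of Psmb4, Psmd7, Psmd8, Psmd9 and Psmd3.

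In KO oocytes 10 of 48 members differed between the lines, 7 higher and 3 lower in the Tle6 line, which is 20.8% of the members against 32.5% of all genes tested (15.7% higher and 16.8% lower). Higher were Psme2b, Psmg4, Psmb5, Psme2, Psmb7, Psma3 and Psmd5, and lower were Psmb11, Psmd3 and Psmd4. Psmg4 was 1.95-fold higher (log2 0.96 ± 0.18, adjusted p = 0.000972) and Psmb7 1.57-fold higher (log2 0.65 ± 0.15, adjusted p = 0.00422). Psmb11 was 4.22-fold lower (log2 -2.08 ± 0.33, adjusted p = 0.000345). Psmb5 was 1.85-fold higher (log2 0.88 ± 0.19, adjusted p = 0.00318), and the opposite order of Gm3375, which shares sequence with it, is given with its levels above. Psme2 and Psme2b were higher by log2 0.69 (adjusted p = 0.042) and 1.33 (adjusted p = 0.0403), with the highest values of both in Tle6 KO replicate 3. Without that replicate neither passed, at 0.40 (adjusted p = 0.122) for Psme2 and 0.73 (adjusted p = 0.157) for Psme2b.

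Psmb5, Psmb7, Psmb11 and Psmg4 passed in each of the 18 alternatives in KO oocytes. Psmd4 passed in 14, Psma3 and Psmd3 in 13, and Psmd5, Psme2 and Psme2b in 9 each. Tle6 het replicate 2 enters these KO differences through the fit over all 12 replicates. The count fell to 5 when its library A was left out, which ended the calls of Psmd4 (adjusted p = 0.0865), Psmd3 (0.0559), Psmd5 (0.0811), Psme2 (0.0576) and Psme2b (0.0554), while their log2 differences stayed equal to 1 decimal. It was 10 when library B was left out, 9 of them among the first 10, and the call lost was that of Psmd5 (adjusted p = 0.0534). The count lay between 4 and 13 when single replicates were left out. The lowest counts were 4 without Padi6 KO replicate 2 and 5 without Padi6 KO replicate 1 or without Tle6 KO replicate 3.

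The groups compared between the lines in het and in KO share no sample. Both comparisons come from the fit over all 12 replicates, though, and both set the same lines and strains against each other. Calls shared by them are therefore not independent. Psma3, Psmb7, Psmb11, Psmd3, Psmd4 and Psmg4 differed in the same direction in both, which is 46.2% of the members called in het and 60.0% of those called in KO. Of these 6, Psmb7, Psmb11 and Psmg4 passed in every alternative in both comparisons, while the het call of Psmd3 and the KO calls of Psma3, Psmd3 and Psmd4 did not hold in all of them. Over all genes these shares were 56.1% and 49.3%. The sign was the same for 33 of 48 members (68.8%), beside 70.6% of all genes. Groups that did not overlap between the lines were found for 25 members in het, against 53.9% of all genes, and for 18 members in KO, against 40.5%.

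**Figure D4:**
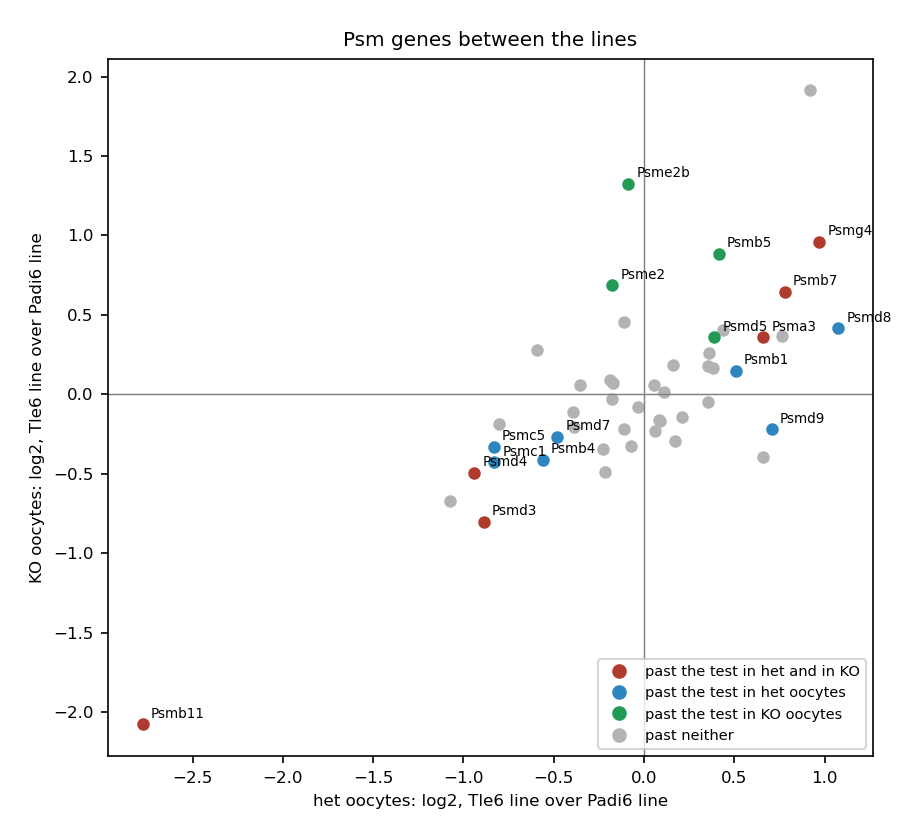
Log2 difference of the Tle6 line over the Padi6 line for the 48 members tested, in het oocytes (x axis) and in KO oocytes (y axis), coloured by whether the test was passed in both, in one or in neither. Psmb11 lies lowest on both axes and Psmg4, Psmb7 and Psma3 are higher in the Tle6 line on both.

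Sums over a subcomplex are given as CPM, without division by length. Constitutive alpha subunits summed to 1433 ± 121 CPM (SD, n = 3) in Padi6 het, 1475 ± 68.7 (n = 3) in Padi6 KO, 1640 ± 169 (n = 2) in Tle6 het and 1429.6 ± 52.5 (n = 4) in Tle6 KO. The beta ring summed to 755 ± 42.5, 783 ± 43.2, 927 ± 95.6 and 849 ± 131 CPM in the same order of groups. The ATPases summed to 739.8 ± 41.4, 701 ± 39.8, 606 ± 26.9 and 629 ± 68.2 CPM, and the assembly chaperones to 579.8 ± 23.9, 613 ± 31.0, 762 ± 16.4 and 689 ± 17.0 CPM. The non-ATPase subunits of the 19S particle summed to 1688 ± 92.1, 1734 ± 156, 2302 ± 30.02 and 1846 ± 366 CPM, and all 49 proteasome members to 6074 ± 322, 6139 ± 64.4, 6945 ± 246 and 6260 ± 450 CPM. Psmd8 weighs heavily in both of these sums. It was higher in Tle6 het than in Padi6 het by log2 1.08, or 0.49 without library B of Tle6 het replicate 2. Over the 11 non-ATPase subunits the median log2 difference between het oocytes was -0.032, beside -0.030 for all genes, so these sums do not describe a raised class. Every Tle6 KO replicate lay below both Tle6 het replicates in the alpha, chaperone and non-ATPase sums and in the sum of all 49, the beta and ATPase sums of these groups overlapped, and Padi6 het and KO overlapped in all of these sums. Within Tle6 het replicate 2, library A gave a sum of 8088 CPM over all 49 members and library B one of 6593 CPM, against up to 6703 CPM in Tle6 KO, and their non-ATPase sums were 1769 and 2624 CPM. Chaperone sums were higher in every Tle6 replicate than in any Padi6 replicate, and the ATPase sums of both Tle6 het replicates were below all 6 Padi6 values. Libraries A and B of het replicate 2 had ATPase sums of 895 and 479 CPM, on either side of all Padi6 values of the ATPases. Such sums of single libraries rest on the factor of their summed replicate, so they are not scaled like the replicates they are set beside.

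Genes that work with the proteasome under other names were listed by role: 12 partners, 11 shuttle and delivery factors, 9 genes of the NRF1 pathway that raises proteasome transcription, 5 ubiquitin and E1 genes, 9 genes of the VCP segregase and 10 antigen processing and interferon genes. One partner, Paaf1, was not matched by name. In the Padi6 line 0 genes of these lists passed the test, against 2.41% of all genes tested. In the Tle6 line 1 passed, Uba6, higher in KO and 1 of 5 genes tested in the ubiquitin and E1 list. In the other lists 0 did, against 1.62% of all genes tested. A single call over all these lists is no excess over that share.

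Uba6, which encodes an E1 enzyme that activates ubiquitin and the ubiquitin-like FAT10, had 70.1, 106 and 89.1 CPM in Padi6 het, 86.4, 102 and 114 in Padi6 KO, 21.0 and 25.4 in Tle6 het and 141, 95.7, 114 and 111 in Tle6 KO. Tle6 het was lowest, and Tle6 KO overlapped the Padi6 line. In the Tle6 line KO was 5.14-fold higher than het (log2 2.36 ± 0.23, SE, adjusted p = 0.00224), against 0.18 ± 0.17 in the Padi6 line (adjusted p = 0.61). The difference between the effects was 2.13 ± 0.28 (adjusted p = 0.00108), and Uba6 passed in the Tle6 line in all 13 alternatives, with 2.21 (adjusted p = 0.00814) without library A and 2.52 (adjusted p = 0.00315) without library B of het replicate 2. Het oocytes of the Tle6 line had less Uba6 than those of the Padi6 line (log2 -1.93 ± 0.22, adjusted p = 4.24e-05), and KO oocytes did not differ detectably (log2 0.20 ± 0.17, 95% interval -0.17 to 0.57).

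Ubb, a polyubiquitin gene, had 217, 185 and 214 CPM in Padi6 het, 199, 196 and 197 in Padi6 KO, 400.2 and 261 in Tle6 het and 417, 344, 320.0 and 529.7 in Tle6 KO. Its Tle6 line values lay above those of the Padi6 line, with log2 0.69 ± 0.21 in het (adjusted p = 0.0281) and 1.03 ± 0.19 in KO (adjusted p = 0.000889). Uba1, the main E1 enzyme, was lower in the Tle6 line by log2 -0.68 in het (adjusted p = 0.0395) and -0.69 in KO (adjusted p = 0.0113). Of the libraries of Tle6 het replicate 2, the het calls were lost for Ubb without library A (0.58, adjusted p = 0.0915) and for Uba1 without library B (-0.59, adjusted p = 0.0987).

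**Figure D5:**
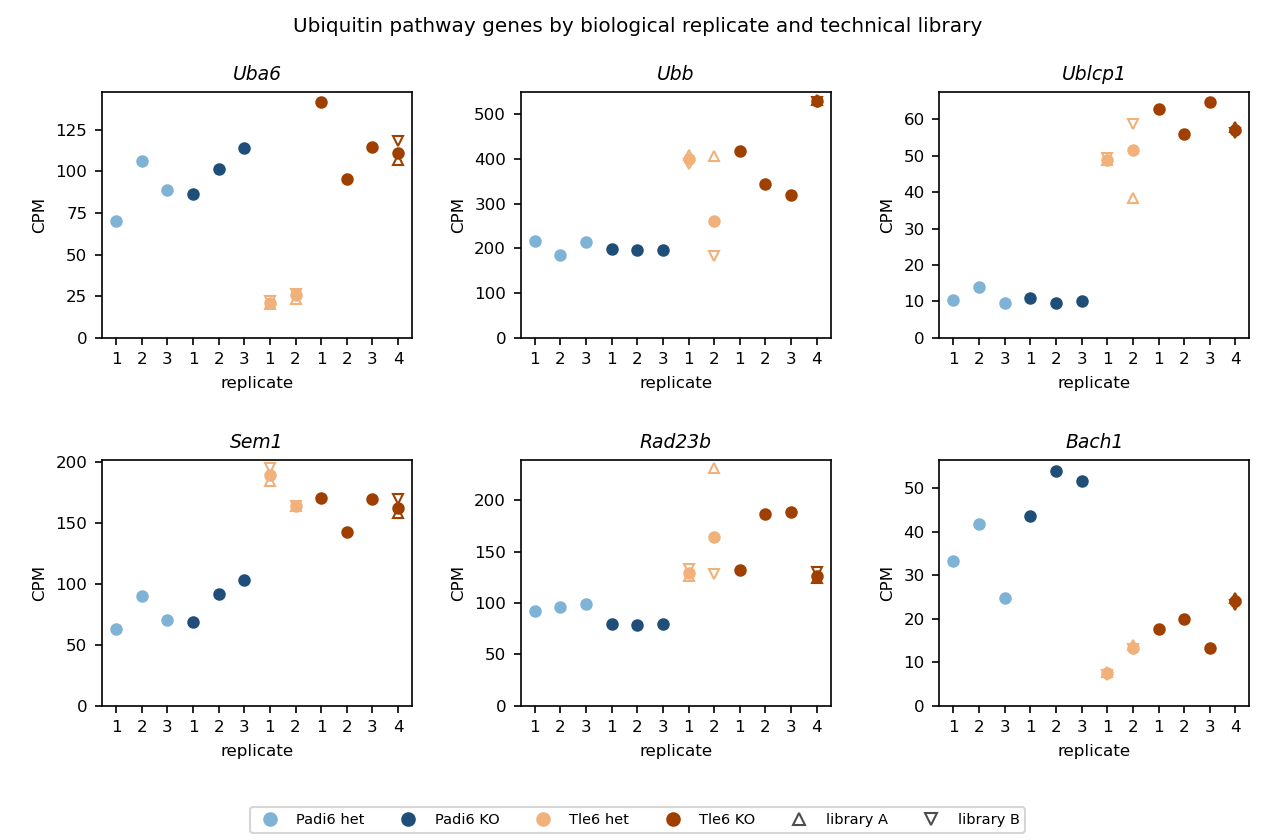
CPM of 6 genes that work with the proteasome, in each biological replicate (filled points, coloured by group), with technical libraries A and B of the Tle6 line as open triangles. Uba6 is lowest in Tle6 het, Ublcp1, Sem1, Rad23b and Ubb are higher in the Tle6 line and Bach1 is lower there.

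Between the lines, partners of the proteasome differed in both directions. In het oocytes 2 of 11 tested partners were higher in the Tle6 line and 2 lower, and in KO oocytes 2 were higher and 4 lower, against 28.5% of all genes called in het and 32.5% in KO in either direction. Ublcp1, which encodes a phosphatase that acts on the 19S particle, had 10.4, 13.9 and 9.42 CPM in Padi6 het, 10.9, 9.48 and 10.2 in Padi6 KO, 48.96 and 51.7 in Tle6 het and 62.8, 55.9, 64.7 and 57.2 in Tle6 KO. It was 4.48-fold higher in het oocytes of the Tle6 line (adjusted p = 2.01e-06) and 5.89-fold higher in KO (adjusted p = 1.11e-07). Sem1, the smallest lid subunit, was higher by log2 1.24 in het (adjusted p = 0.000414) and 0.88 in KO (adjusted p = 0.00125). Adrm1, the ubiquitin receptor RPN13, was lower by log2 -0.91 in het (adjusted p = 0.0066) and -0.62 in KO (adjusted p = 0.0143). Pomp, the chaperone that completes the core, was lower by -0.52 in het (adjusted p = 0.0351) and -0.69 in KO (adjusted p = 0.00192). Fbxo7, which binds PI31, and Akirin2, which brings proteasomes into the nucleus, passed in KO oocytes and not in het, a contrast that was not itself tested, at -0.73 (adjusted p = 0.00261) and -0.56 (adjusted p = 0.00297). Without library B of Tle6 het replicate 2 the het calls of Adrm1 (-0.67, adjusted p = 0.0548) and Pomp (-0.22, adjusted p = 0.417) were lost.

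Of the 9 NRF1 pathway genes, 3 were higher and 3 lower in het oocytes of the Tle6 line, and 2 were higher and 2 lower in KO oocytes, beside the same 28.5% and 32.5% of all genes. Nfe2l1 itself passed neither test, at 50.7 to 72.8 CPM in Padi6 oocytes and 49.3 to 86.1 CPM in Tle6 oocytes. Ngly1, the glycosidase that processes NRF1, was higher in the Tle6 line by log2 1.02 in het (adjusted p = 0.00052) and 0.43 in KO (adjusted p = 0.0315, or 0.0739 without library A of Tle6 het replicate 2). Bach1, a repressor at antioxidant response elements, had 33.4, 41.9 and 24.7 CPM in Padi6 het, 43.6, 54.1 and 51.8 in Padi6 KO, 7.49 and 13.3 in Tle6 het and 17.6, 20.02, 13.3 and 24.1 in Tle6 KO. It was lower by log2 -1.68 in het (adjusted p = 0.00138) and -1.41 in KO (adjusted p = 0.000578). Maff, a small MAF partner of these factors, was higher by log2 1.45 in het (adjusted p = 0.018) and 3.06 in KO (adjusted p = 4.73e-05), at no more than 5.15 CPM. Mafg was lower by log2 -0.70 in het (adjusted p = 0.0147) and -0.52 in KO (adjusted p = 0.0198), and Mafk was lower in het at -2.28 (adjusted p = 0.0164).

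Of the 10 shuttle and delivery factors tested, 4 were higher and 1 lower in het oocytes of the Tle6 line and 2 higher in KO oocytes, again beside 28.5% and 32.5% of all genes, so the KO share was below the background. Rad23b, a shuttle that carries ubiquitin chains, was 1.54-fold higher in het (adjusted p = 0.0243) and 2.01-fold higher in KO (adjusted p = 0.000375). In het, Ddi2, Zfand5 and Midn were also higher, by log2 0.73, 0.56 and 1.15, and Zfand2b was lower, at -0.89. In KO, Ubqln2 was the other gene higher, at 1.05. Without library B the het calls of Ddi2 (0.41, adjusted p = 0.206) and Midn (0.56, adjusted p = 0.5204) were lost, as was the KO call of Ubqln2 (adjusted p = 0.0527). Of the 9 VCP genes, Ubxn4 and Ubxn7 were higher and Vcp and Ubxn1 lower in both comparisons, with the same background. Vcp, the segregase itself, was lower by log2 -0.78 in het (adjusted p = 0.00396) and -0.52 in KO (adjusted p = 0.00936). Of the 10 antigen processing and interferon genes, 0 differed in het oocytes and 1 in KO oocytes, below the 28.5% and 32.5% of all genes. That gene was B2m, the light chain of MHC class I, higher in KO oocytes of the Tle6 line (log2 0.78, adjusted p = 0.0396, or 0.0779 without library B).

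Psmc3ip, the member that is no proteasome gene, encodes a partner of the meiotic recombinases. It had 27.1, 33.9 and 27.8 CPM in Padi6 het, 26.3, 27.5 and 34.1 in Padi6 KO, 32.9 and 21.9 in Tle6 het and 36.6, 43.9, 46.8 and 33.7 in Tle6 KO. All 4 Tle6 KO values lay above both Tle6 het values, a log2 fold change of 0.60 ± 0.24 (SE) that did not pass (adjusted p = 0.229), and the Padi6 groups overlapped (log2 -0.02 ± 0.15). Its 75-base stretches are shared with Mlx for 25.6%.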

How the data were processed

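Messenger RNA of pooled GV oocytes was measured in 15 libraries, which are 12 biological replicates in 4 groups. The deposited values are read counts per gene: per the submitters' processing notes, bcl2fastq 2.20.0.422, cutadapt 2.8, STAR 2.7.8a and HTSeq 2.0.2 with the mm39 build were used. The annotation release and the strand setting were not given in the sources used here. Reads of overlapping antisense genes may be mixed. Gene names and lengths came from GENCODE M21, which matched 52147 of 53700 IDs. Technical libraries were summed, and the summary entries for unassigned reads were left out (no feature 5.39% to 7.29%, ambiguous 3.85% to 4.20%, not unique 12.1% to 14.5% of reads), as were 92 spike-ins.

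CPM values were scaled with TMM factors. Technical libraries A and B given apart carry the factor of their summed replicate. Comparisons used edgeR 4.0.16 quasi-likelihood tests in R 4.3.3 on genes kept by filterByExpr, fitted within each line for KO against het and over all 12 replicates otherwise. Benjamini-Hochberg adjustment covered all genes tested, at 0.05. Intervals are 95%. DESeq2 1.42.0, other normalization and filters, and leaving out libraries and replicates were alternatives. Members named with all values were up to 8 called per comparison by smallest p, the 3 with the largest fold change at 10 CPM or more in each KO comparison, the catalytic and alternative subunits, the activators and inhibitor, and the highest and lowest of each subcomplex. Up to 5 called genes of each other list were named, and some genes of these lists are not reported here. Members, lists and some displayed genes were chosen with earlier results of these data known. Sharing was counted over 75-base stretches of annotated exons. Counting error limits members near 3 counts.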

Additional observations from a re-analysis of the deposited data

Results flagged for a closer look

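In 3 cases 1 of the 4 Tle6 KO replicates lay far from the other 3, out of 53 groups of 4 examined, where chance gives about 1 in 20. Psmc5, a 19S ATPase, had 127.1 CPM in Tle6 KO replicate 2, and the other KO replicates had 93.98 to 99.44 CPM. Psme2 had 14.08 CPM in Tle6 KO replicate 3, against 7.033 to 8.231 CPM, and its copy Psme2b had 1.776 CPM in the same replicate, against 0.4907 to 0.6515 CPM. Psme2 and Psme2b share sequence, so these are not separate observations.

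For Uba6, an E1 enzyme gene of the ubiquitin and E1 list, the effect of the knockout differed between the lines by edgeR's quasi-likelihood test of that difference. It was 2.132 on the log2 scale (adjusted p = 0.001078), as the Tle6 effect minus the Padi6 effect. All 4 Tle6 KO values lay above both Tle6 het values.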

How the results depend on the processing

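In neither knockout did a proteasome member pass under any alternative tried, the fit with a replicate block included, which gave 0 in the Padi6 line (5 unadjusted p under 0.05) and 0 in the Tle6 line (1 unadjusted). The replicate numbers are not known to pair the samples, so the main fits used no pairing. In the Padi6 line, deviations of same-numbered samples correlated at 0.240, 0.060 and 0.103 and those of different-numbered samples at -0.204 to 0.124. In the Tle6 line the same-numbered values were 0.0996 and 0.201, but deviations of 2 het replicates mirror each other and cannot inform on pairing. Over all genes, the block moved the number called from 440 to 859 in the Padi6 line and from 329 to 57 in the Tle6 line. For the difference between the knockout effects the count of 0 became 1 without the filter on low counts and 0 to 1 when single replicates were left out. For het oocytes between the lines the count of 13 became 7 without library B of Tle6 het replicate 2 and 8 to 15 when single replicates were left out, with 8 without Padi6 het replicate 2 or 3. For KO oocytes the count of 10 became 5 without library A of that replicate and 4 to 13 when single replicates were left out. DESeq2 gave 16 in het and 11 in KO. Values of single genes were tallied over the genes named by the rule above, which takes up to 8 called members per comparison by smallest p. The calls between the lines of Psmb1, Psmb4, Psmd3, Psmd7 and Psmd9 in het and of Psmd5 and Psme2 in KO are therefore left out. Of the values tallied under the alternatives, 1018 kept their side of the threshold, 98 no longer passed and 0 changed sign. The cause was not tested. Leaving out a Tle6 het replicate leaves 1 sample in that group, which is assumed to vary like the others. Depth limits Psma8, Psmb8, Psmb9 and Psme1.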
